A study of Homo sapiens with 12 samples.

Results

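Genes of the cytokine, chemokine, TNF and S100 families were followed in KKU-213A cells, an established human line derived from a bile duct cancer (cholangiocarcinoma). Members were chosen by symbol alone: CXCL, CXCR, CCL and CCR genes, interleukins and their receptors, TNFSF ligands, TNFRSF receptors and S100 genes, without 2 chemokine genes and without hyphenated symbols. Such a gene counted as a member where it stood in at least 1 of the 3 tables the authors deposited. This gave 37 members among the 5308 genes in any table, out of 193 protein-coding genes of these names in GENCODE release 29. By family, 2 of 54 chemokine ligand and receptor genes, 16 of 85 interleukin and interleukin receptor genes, 5 of 11 TNF ligand genes, 7 of 21 TNF receptor genes and 7 of 22 S100 genes were members. Genes absent from a table were not analysed there, and absence does not show that a gene was unchanged or unexpressed.

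The study grew the cells in 4 media, with 3 poly(A) RNA libraries each. Lactic acidosis cells had L-lactate and the buffer HEPES, each at 25 mM, at pH 6.7, a medium phased in over passages. Lactosis cells had 25 mM L-lactate at pH 7.4, and acidosis cells had 25 mM HEPES at pH 6.5. Control cells were untreated in the low-glucose medium with serum that all groups shared. Each treated culture spent at least 5 passages in its medium, and a passage number is given for no control. Acid therefore cannot be told apart from HEPES, nor a treatment from time in its medium. All libraries come from 1 cell line, the 3 treated groups were set against the same 3 control libraries, and nothing in the labels ties the libraries within a group to separate cultures. The p-values then measure the spread between these libraries, which may be technical.

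Cytokines and chemokines are secreted signals that recruit and instruct leukocytes, and epithelial tumour cells both make and read them. Interleukin-1 alpha and beta act through a shared receptor, which the antagonist encoded by IL1RN blocks, and that receptor and the TNF receptors pass their signals to the transcription factor NF-kappa B. TNF ligands bind cell surface receptors that drive either inflammation or cell death. S100 proteins are small calcium-binding proteins that regulate partners inside the cell, and some of them act as alarm signals once released.

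The promoters of 7 members are shown because the results turn on these genes: CXCL1, IL1RN, S100A8 and TNFSF10 were, by the authors' deposited table, at least 4-fold lower in lactic acidosis, and IL1A, TNFSF18 and S100A9 were listed in opposite directions in 2 treatments. The sequences are from RefSeq on GRCh38.p14, from 250 bases before the first listed start of the gene to 50 bases after it, 5′ to 3′ on the gene's strand. Capitals mark matches on either strand to 3 motifs: TGANTCA for AP-1, GGGNNNTTCC for NF-kappa B and GAAANNGAAA for the interferon response element. The capitals in CXCL1 are 2 overlapping matches on opposite strands.
CXCL1, chr4:73869143-73869442, plus strand: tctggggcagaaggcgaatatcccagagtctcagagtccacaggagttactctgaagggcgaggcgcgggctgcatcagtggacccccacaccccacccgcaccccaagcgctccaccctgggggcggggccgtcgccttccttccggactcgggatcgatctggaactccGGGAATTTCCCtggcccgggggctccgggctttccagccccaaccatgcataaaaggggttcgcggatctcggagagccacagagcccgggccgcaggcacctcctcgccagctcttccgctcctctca
TNFSF10, chr3:172523381-172523680, minus strand: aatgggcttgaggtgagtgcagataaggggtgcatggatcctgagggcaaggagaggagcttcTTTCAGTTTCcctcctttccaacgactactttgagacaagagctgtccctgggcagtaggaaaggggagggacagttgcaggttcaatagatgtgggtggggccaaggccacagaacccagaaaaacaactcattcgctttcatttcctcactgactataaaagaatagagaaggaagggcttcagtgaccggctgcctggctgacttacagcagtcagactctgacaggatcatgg
IL1RN, chr2:113117721-113118020, plus strand: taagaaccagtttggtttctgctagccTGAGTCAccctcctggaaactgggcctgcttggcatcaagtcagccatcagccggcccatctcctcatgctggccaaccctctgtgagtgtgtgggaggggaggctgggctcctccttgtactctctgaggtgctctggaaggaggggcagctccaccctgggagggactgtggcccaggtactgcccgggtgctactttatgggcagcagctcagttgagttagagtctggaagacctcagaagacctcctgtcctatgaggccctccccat
IL1A, chr2:112784444-112784743, minus strand: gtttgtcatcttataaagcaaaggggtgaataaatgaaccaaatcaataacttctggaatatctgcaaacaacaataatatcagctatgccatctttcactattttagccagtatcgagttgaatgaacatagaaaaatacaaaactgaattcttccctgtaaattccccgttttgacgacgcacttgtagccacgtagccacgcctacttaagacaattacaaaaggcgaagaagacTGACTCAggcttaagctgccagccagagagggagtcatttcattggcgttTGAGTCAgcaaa
S100A9, chr1:153357604-153357903, plus strand: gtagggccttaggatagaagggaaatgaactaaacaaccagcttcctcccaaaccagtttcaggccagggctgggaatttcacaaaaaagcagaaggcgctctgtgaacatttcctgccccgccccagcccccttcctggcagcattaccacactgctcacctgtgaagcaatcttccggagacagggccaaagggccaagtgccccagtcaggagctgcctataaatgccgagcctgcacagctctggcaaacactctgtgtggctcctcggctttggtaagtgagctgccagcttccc
S100A8, chr1:153391139-153391438, minus strand: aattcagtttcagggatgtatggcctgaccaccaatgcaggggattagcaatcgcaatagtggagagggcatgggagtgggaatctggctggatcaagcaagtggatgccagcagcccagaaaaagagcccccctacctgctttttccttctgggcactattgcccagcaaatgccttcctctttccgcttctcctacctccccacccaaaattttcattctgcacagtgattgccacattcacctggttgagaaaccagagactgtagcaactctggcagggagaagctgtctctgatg
TNFSF18, chr1:173050892-173051191, minus strand: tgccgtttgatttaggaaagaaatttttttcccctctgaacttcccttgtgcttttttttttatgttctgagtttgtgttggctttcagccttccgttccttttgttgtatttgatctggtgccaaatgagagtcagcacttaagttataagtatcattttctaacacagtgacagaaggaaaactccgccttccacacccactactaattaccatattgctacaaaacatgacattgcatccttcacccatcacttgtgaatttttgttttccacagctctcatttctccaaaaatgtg
CXCL1 holds the NF-kappa B motif, TNFSF10 the interferon motif, and IL1A and the first start of IL1RN the AP-1 motif, while S100A9, TNFSF18 and the first start of S100A8 hold none of these letters. Other listed starts of IL1RN hold the NF-kappa B and the interferon motif. The IL1RN start shown, the first listed, is not the most upstream: it lies inside the gene, which begins at 113107214. RefSeq promoters were matched for 29 of the 37 members, with 38 starts. The AP-1 motif was in 6 of these 38 promoters, 15.8%, against 7.71% of all 35116 promoters of that length. The NF-kappa B motif was in 7, 18.4%, against 6.52%, and the interferon motif in 5, 13.2%, against 3.57%. Starts of 1 gene share sequence and members share ancestry, so these shares are descriptions, and a match is not a site of binding.

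The deposited values are scaled by gene length, which lets levels be compared between genes. Read depth is unknown from these tables. Among biliary epithelial markers, KRT19 stood between 2596.21 and 3066.95 in lactic acidosis, between 2729.28 and 2876.09 in lactosis, and between 2798.71 and 4419.27 in control. The authors listed KRT19 lower in both treatments (log2 fold changes -0.48 and -0.44), and it did not pass limma in either comparison. SOX9, the other of the 8 biliary markers that was listed, rose in lactic acidosis to 34.1 ± 1.44, against 12 ± 5.47 in control (SD, n = 3; limma adjusted p = 0.00183). Of 12 leukocyte markers, 1 was in the lactic acidosis table (CD68), none in the lactosis table and 1 in the acidosis table (CSF1R). The library weight of control replicate 1 was set to 1.0 as the reference. Relative to it, fitted weights lay between 0.766 and 0.79 in the other control libraries and between 0.754 and 0.89 in the treated libraries. The deposited values of control replicate 1 therefore lie low. Relative to the authors' size factors, the deposited values set treated over control higher by a median of 0.1 on the log2 scale for lactic acidosis, 0.02 for lactosis and 0.0 for acidosis. The summed level of the 7 striated muscle markers in the lactosis table was 55.99 in lactosis replicate 2, 0.49 and 0.53 in lactosis replicates 1 and 3, and between 0.66 and 1.5 in control. For the 9 such markers in the lactic acidosis table it was 55.45 in lactic acidosis replicate 2, 18.72 and 17.0 in the other lactic acidosis libraries, and between 38.42 and 57.8 in control. That sum mixes markers that went opposite ways: TNNI2 fell to 12.96, 14.87 and 12.37 in lactic acidosis, against 26.23, 35.37 and 40.98 in control (limma adjusted p = 0.00054), as did TNNT3 and MB. MYH2 was at 1.48 in lactic acidosis replicate 2, 0.07 and 0.03 in replicates 1 and 3, and at most 0.04 in control, so replicate 2 stands apart in both lactate groups. CD68 stood at 43.23 to 50.11 in lactic acidosis and 27.67 to 33.05 in control. Of 10 fibroblast and endothelial markers, PECAM1 alone was listed, in acidosis, at 0.73 to 1.28 against 0.11 to 0.54 in control. The part of these differences in the results was not tested.

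In lactic acidosis, 6 of 7 TNF receptors were listed higher than in control, 5 of 7 S100 genes were listed higher, and 4 of 5 TNF ligands were listed lower. The authors' deposited table held 31 members, 20 listed higher and 11 lower, where 58.9% of all 4279 listed genes were higher and 41.1% lower. The authors' fold changes used throughout are their posterior ones, and their median log2 over the members was 0.78, against 0.37 over all listed genes. Changes of at least 2-fold were found for 4 members upward and 7 downward, against 10.5% and 15.7% of all listed genes. Limma on log2(value + 1), adjusted over all listed genes, passed all 31 members with non-overlapping groups, while 86.1% of all listed genes passed (55.3% higher and 30.8% lower) and 90.2% did not overlap. Because membership itself asked for a listing in a table, these counts describe the members and say nothing more about them. The listed genes were called by the authors from these same libraries, so limma p-values against control are not an independent check. In bulk RNA, fewer cells that express a gene and less of its RNA per cell cannot be told apart. Without lactic acidosis replicate 2, limma passed 18 members higher and 11 lower.

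In lactosis, 24 members were listed, 12 higher and 12 lower, where 59.3% of all 3087 listed genes were higher and 40.7% lower. Their median log2 fold change was -0.07 by the authors' deposited table, against 0.35 over all listed genes. At least 2-fold changes were found for 5 members upward and 8 downward, against 8.1% and 12.8% of all listed genes. Limma passed 11 higher and 11 lower, 22 of 24, against 77.7% of all listed genes (46.5% higher and 31.2% lower), and the groups overlapped for no member, against 84.0% of all listed genes without overlap. Without lactosis replicate 2, it passed 10 higher and 11 lower.

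In acidosis, 10 members were listed, 7 higher and 3 lower, where 61.1% of all 1721 listed genes were higher and 38.9% lower. Only IL13RA2 and IL1RN changed by at least 2-fold there, 1 in each direction, against 4.01% and 8.48% of all listed genes. Limma passed 6 higher and 3 lower, 9 of 10, against 60.0% of all listed genes (35.9% higher and 24.2% lower). For 9 of the 10 members the groups did not overlap, against 75.5% of all listed genes. The count of 6 fell to 2 without acidosis replicate 2 and to 3 without acidosis replicate 1 or 3 or control replicate 2.

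**Figure D1:**
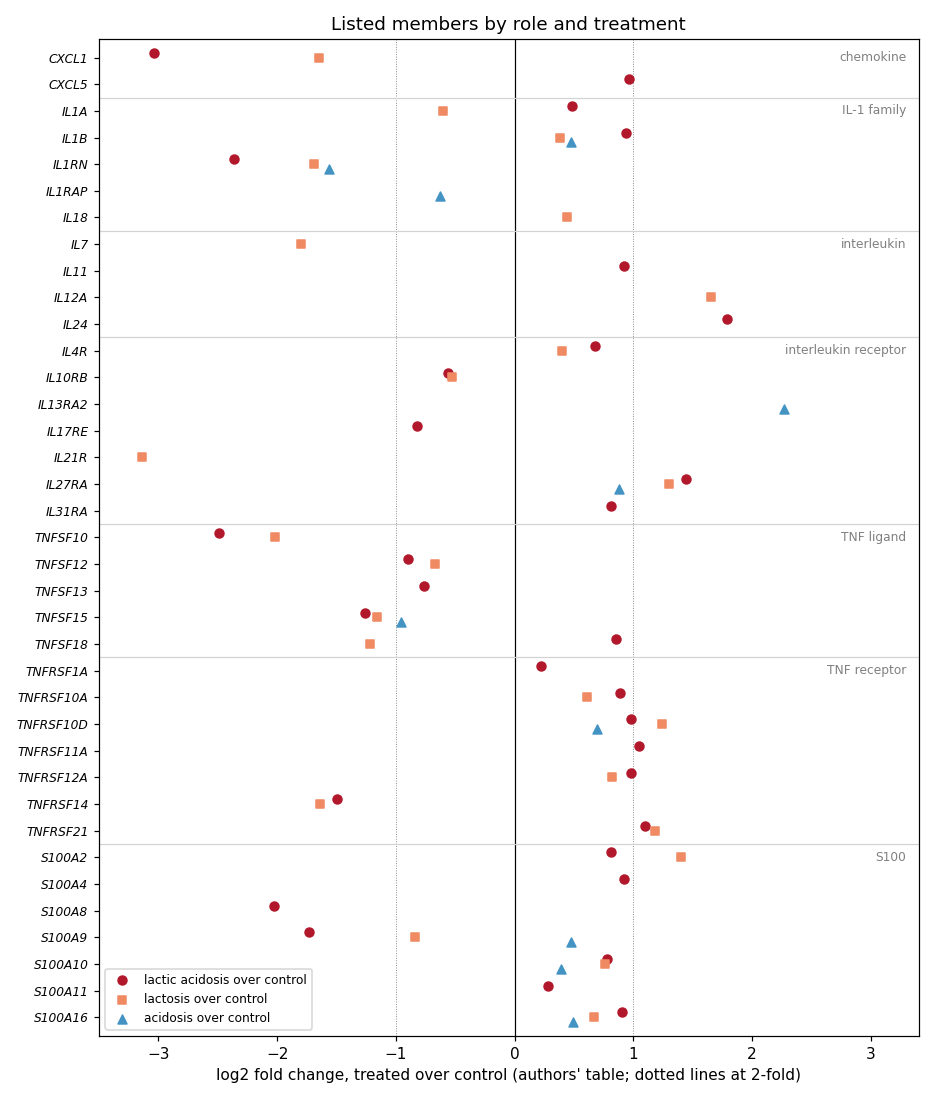
Log2 fold changes of the 37 members by the authors' deposited table, treated over control on the horizontal axis, 1 gene per line and grouped by role; circles are lactic acidosis, squares lactosis and triangles acidosis, and dotted lines mark 2-fold. IL1RN lies left of 0 in all 3 treatments, IL27RA and TNFRSF10D lie right of 0 in all 3, and IL1A, TNFSF18 and S100A9 have marks on both sides.

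Of the 31 members in lactic acidosis and the 24 in lactosis, 20 were in both, 64.5% of the lactic acidosis members and 83.3% of the lactosis members, against 54.8% and 75.9% of all genes in these tables. Of the 10 acidosis members, 80.0% were in each of the other tables, against 75.8% (lactic acidosis) and 68.2% (lactosis) of all acidosis genes. All 8 members of both the lactic acidosis and acidosis tables were in the lactosis table too: IL1B, IL1RN, IL27RA, TNFRSF10D, TNFSF15, S100A9, S100A10 and S100A16. A further 11 were in the lactic acidosis table alone, 4 in the lactosis table alone and 2 in the acidosis table alone.

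The interleukin-1 genes lie near each other on chromosome 2 in GRCh38, IL1A from 112773915 to 112784590, IL1B from 112829751 to 112836903 and IL1RN from 113107214 to 113134016. IL1RN, the receptor antagonist, fell in all 3 treatments. Its values were 1.61, 2.68 and 1.72 in lactic acidosis, 2.83, 2.87 and 3.43 in lactosis, 2.82, 3.59 and 3.32 in acidosis, and 10.35, 9.08 and 8.97 in control. Every treated library lay below every control library. By limma the log2 difference from control was -1.82 ± 0.16 (SE) in lactic acidosis (adjusted p = 7.99e-05), -1.37 ± 0.14 in lactosis (adjusted p = 0.000169) and -1.3 ± 0.16 in acidosis (adjusted p = 4.85e-05).

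IL1B, a cytokine released by inflammasome cleavage, rose in all 3 treatments. It stood at 92.84, 103.27 and 86.75 in lactic acidosis, 62.08, 57.53 and 60.79 in lactosis, 65.12, 65.61 and 59.17 in acidosis, and 40.66, 48.89 and 46.13 in control. The treated libraries lay above the controls, and the lactic acidosis libraries lay above all others. By limma, IL1B differed from control on the log2 scale by 1.04 ± 0.14 (SE) in lactic acidosis (adjusted p = 0.000423), 0.41 ± 0.14 in lactosis (adjusted p = 0.0241) and 0.48 ± 0.16 in acidosis (adjusted p = 0.0233). The lactosis call was lost without lactosis replicate 1, 2 or 3 (limma adjusted p = 0.0989, 0.051 and 0.0773). The acidosis call was lost without acidosis replicate 1, 2 or 3 (limma adjusted p = 0.0681, 0.109 and 0.062) and without control replicate 2 (0.0515).

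IL1A, an alarm cytokine that is active without cleavage, rose in lactic acidosis and fell in lactosis. Its values were 246.98, 303.68 and 242.01 in lactic acidosis, 108.19, 117.61 and 128.37 in lactosis, and 160.83, 204.51 and 157.0 in control. The 3 groups did not overlap. The limma log2 difference from control was 0.6 ± 0.16 (SE) in lactic acidosis (adjusted p = 0.00872) and -0.55 ± 0.15 in lactosis (adjusted p = 0.0132). The lactosis call was lost without lactosis replicate 1 or control replicate 2 (limma adjusted p = 0.0649 and 0.0561). IL1A was not in the acidosis table. IL18, a further cytokine of this family, rose in lactosis to 142 ± 3.18, against 102 ± 1.48 in control (SD, n = 3), with a limma adjusted p of 0.0107. IL1RAP, the co-receptor for both forms of interleukin-1, fell in acidosis to 9.22 ± 1.64, against 13 ± 1.62 in control (SD, n = 3; limma adjusted p = 0.035), a call lost without acidosis replicate 2 or 3 or control replicate 2 (0.0948, 0.193 and 0.141).

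**Figure D2:**
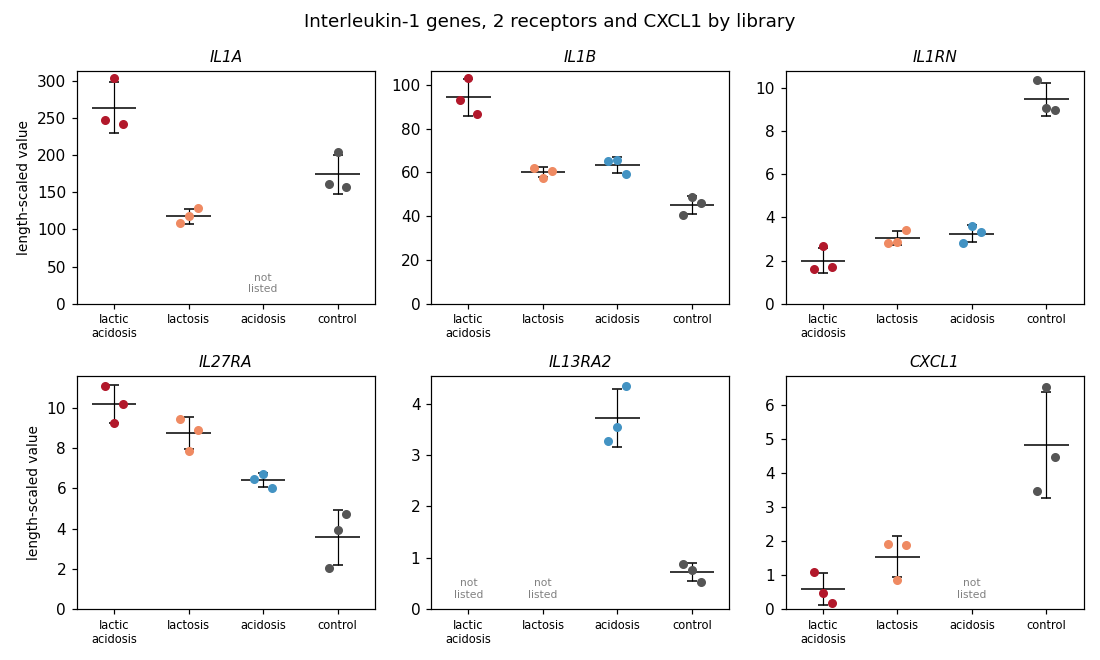
Length-scaled values of 6 members by library, with the group on the horizontal axis and the value on the vertical axis; points are libraries, horizontal lines means and bars the SD of 3 libraries. IL1A stands at 264 in lactic acidosis, 118 in lactosis and 174 in control on average, and IL13RA2 at 3.72 in acidosis against 0.723 in control.

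The other interleukin genes were at low levels. IL24, a cytokine of the interleukin-10 family, stood at 1.65, 2.5 and 1.51 in lactic acidosis and 0.51, 0.53 and 0.31 in control, so that the groups did not overlap (limma adjusted p = 0.00117). IL11, which signals through the gp130 receptor, was the other interleukin listed in lactic acidosis, at 2.64 ± 0.637 against 1.27 ± 0.121 in control (SD, n = 3). In lactosis, IL12A, which encodes a subunit of interleukin-12, stood at 2.42, 3.38 and 4.82, against 0.61, 1.45 and 1.25 in control, and rose (limma adjusted p = 0.004). IL7, a lymphocyte growth factor, stood at 0.34, 0.38 and 0.26 in lactosis and 1.14, 0.74 and 1.54 in control, and fell (limma adjusted p = 0.00777), a call lost with a pseudocount of 5 (0.0731).

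Among the interleukin receptors, IL27RA, a chain of the interleukin-27 receptor, rose in all 3 treatments. It stood at 11.1, 9.23 and 10.22 in lactic acidosis, 9.44, 7.87 and 8.93 in lactosis, 6.48, 6.72 and 6.03 in acidosis, and 2.04, 3.92 and 4.72 in control. No treated library overlapped the controls. Limma gave log2 differences of 1.34 ± 0.22 (SE) in lactic acidosis (adjusted p = 0.00122), 1.14 ± 0.22 in lactosis (adjusted p = 0.00318) and 0.75 ± 0.21 in acidosis (adjusted p = 0.0112), which was 0.48 without control replicate 1.

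IL13RA2, a receptor that binds interleukin-13 and is known as a decoy, was in the acidosis table alone. Its values were 3.27, 3.55 and 4.35 in acidosis and 0.88, 0.76 and 0.53 in control, and the groups lay far apart. The log2 fold change was 2.27 by the authors' deposited table, and the limma log2 difference was 1.45 ± 0.17 (SE; adjusted p = 2.34e-05). In lactic acidosis, IL4R and IL31RA, receptor chains for interleukin-4 and interleukin-31, rose, while IL17RE, a chain of the receptor for interleukin-17C, and IL10RB, a chain shared by several receptors, fell (authors' log2 fold changes 0.68, 0.81, -0.82 and -0.56). For IL10RB, 35.4% of all 75-base stretches of exon also occur in another transcript, so its listing is uncertain. Its lactic acidosis call was lost without lactic acidosis replicate 1 or 3 or control replicate 3 (limma adjusted p = 0.0666, 0.0853 and 0.0611), and its lactosis call without lactosis replicate 1 or 3 (0.0519 and 0.0818). In lactosis IL4R did not pass limma (62.9 ± 4.62 against 47.5 ± 13.4 in control, SD, n = 3, adjusted p = 0.0784), nor did IL21R, which was at 0.05 at most in lactosis and 0.31 at most in control (adjusted p = 0.0939). The IL4R difference in lactosis was 0.18 without control replicate 1 (limma adjusted p = 0.143), against 0.44 with all libraries, and it passed without control replicate 3 (0.0322) and with rescaled values (0.013). IL21R passed with a pseudocount of 0.1 (limma adjusted p = 0.00681) and with rescaled values (0.0314). Of its 75-base windows 21.7% also occur in other transcripts, and 23.3% of its exonic bases overlap an antisense gene.

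Both chemokine members are on chromosome 4 and encode attractants of neutrophils. CXCL1, from 73869393 to 73871242, stood at 1.1, 0.46 and 0.19 in lactic acidosis, 1.91, 0.84 and 1.87 in lactosis, and 3.46, 6.53 and 4.48 in control. It fell in both treatments, and every treated library lay below the controls. Log2 differences by limma were -1.89 ± 0.25 (SE) in lactic acidosis (adjusted p = 0.000399) and -1.19 ± 0.24 in lactosis (adjusted p = 0.00344). The authors' posterior log2 fold changes were -3.04 and -1.65, and the plain ratios of their group means -3.13 and -1.68. CXCL5, from 73995642 to 73998779, moved the other way in lactic acidosis, to 4.96 ± 1.13 against 2.3 ± 0.323 in control (SD, n = 3; limma adjusted p = 0.00301).

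Of the 5 TNF ligands, 4 were listed lower in lactic acidosis and the same number in lactosis, and 1 was listed lower in acidosis, where 41.1%, 40.7% and 38.9% of all listed genes were lower. TNFSF10, which encodes the death ligand TRAIL and lies on chromosome 3 from 172505508 to 172523507, stood at 4.56, 4.93 and 4.06 in lactic acidosis, 6.64, 5.61 and 5.45 in lactosis, and 13.86, 26.98 and 32.27 in control. It fell in both treatments, and the controls themselves spread widely. Limma gave log2 differences of -2.12 ± 0.27 (SE) in lactic acidosis (adjusted p = 0.000329) and -1.8 ± 0.27 in lactosis (adjusted p = 0.00102). TNFSF15, a ligand that costimulates T cells, fell in all 3 treatments. Its values were 1.91, 2.05 and 1.9 in lactic acidosis, 1.99, 1.78 and 2.19 in lactosis, 2.61, 2.22 and 1.91 in acidosis, and 4.7, 4.46 and 3.81 in control. The limma adjusted p was 0.000812, 0.00165 and 0.0047 in that order of treatments.

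TNFSF18, which encodes a ligand that costimulates T cells through the receptor GITR and lies on chromosome 1 from 173039960 to 173050963, rose in lactic acidosis and fell in lactosis. It stood at 128.18, 166.82 and 133.39 in lactic acidosis, 30.95, 24.69 and 41.73 in lactosis, and 75.35, 83.83 and 57.52 in control. The 3 groups did not overlap. The limma log2 difference from control was 0.98 ± 0.18 (SE) in lactic acidosis (adjusted p = 0.00172) and -1.14 ± 0.21 in lactosis (adjusted p = 0.00261). TNFSF12 fell in both treatments and TNFSF13 in lactic acidosis, with authors' log2 fold changes of -0.9, -0.67 and -0.76. These neighbours on chromosome 17 share 25.6% and 45.2% of their 75-base windows with other transcripts, among them a read-through transcript of both, so their listing is uncertain. The lactosis call of TNFSF12 was lost without lactosis replicate 3 or control replicate 2 (limma adjusted p = 0.059 and 0.0549).

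Of the 7 TNF receptors, 6 rose and 1 fell in lactic acidosis, and 4 rose and 1 fell in lactosis, where 58.9% and 59.3% of all listed genes were listed higher. In acidosis 1 of the 7 was listed, and it rose. The death receptor TNFRSF10A and the decoy TNFRSF10D, both receptors for the TRAIL ligand, are neighbours on chromosome 8, from 23190452 to 23225126 and from 23135588 to 23164030. TNFRSF10D stood at 23.18, 25.84 and 23.25 in lactic acidosis, 25.25, 28.11 and 28.01 in lactosis, 21.53, 17.51 and 16.15 in acidosis, and 7.17, 11.54 and 15.98 in control. It rose in all 3 treatments, by a limma log2 difference of 1.06 ± 0.24 (SE) in lactic acidosis (adjusted p = 0.00448), 1.22 ± 0.24 in lactosis (adjusted p = 0.00309) and 0.68 ± 0.23 in acidosis (adjusted p = 0.0226). The acidosis call was lost without acidosis replicate 1 or 2 (limma adjusted p = 0.103 and 0.0522), and the difference was 0.4 without control replicate 1. TNFRSF10A averaged 35.9 ± 0.806 in lactic acidosis and 28.1 ± 5.53 in lactosis, against 18.2 ± 4.83 in control (SD, n = 3), and rose in both, although the lactosis call was lost without lactosis replicate 1 or 3 (limma adjusted p = 0.0713 and 0.112) and the log2 difference there, 0.62 with all libraries, was 0.39 without control replicate 1.

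TNFRSF21, an orphan death receptor, stood at 59.2, 64.08 and 59.33 in lactic acidosis, 61.83, 49.29 and 72.39 in lactosis, and 17.17, 30.76 and 32.73 in control. It rose in both treatments (limma adjusted p = 0.00199 and 0.0041), with no overlap with control. TNFRSF12A, the receptor for the TNFSF12 ligand, rose to 378 ± 30.2 in lactic acidosis and 318 ± 13.9 in lactosis, against 176 ± 10.2 in control (SD, n = 3), where it was the most abundant TNF receptor listed. TNFRSF11A, the receptor RANK, stood at 2.32, 2.39 and 2.59 in lactic acidosis and 0.48, 1.38 and 1.51 in control (limma adjusted p = 0.0102). TNFRSF1A, the main TNF receptor of epithelial cells, rose to 96.4 ± 4.22, against 76.5 ± 10.7 in control (SD, n = 3; limma adjusted p = 0.0485), and that call was lost without any 1 of the lactic acidosis replicates 1, 2 and 3 (0.0962, 0.136 and 0.12), without control replicate 3 (0.0807) or with a pseudocount of 0.1 (0.06).

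TNFRSF14, which receives signals from the TNF ligand LIGHT and from BTLA, was the receptor that fell. It stood at 1.53, 1.4 and 1.56 in lactic acidosis, 1.41, 1.22 and 1.25 in lactosis, and 4.31, 3.15 and 4.2 in control. The treated libraries were tightly grouped below the controls (limma adjusted p = 0.000689 and 0.000698). It shares 9.36% of its windows with other transcripts, and 13.4% of its exonic bases overlap an antisense gene. For TNFRSF10A, described above, the same shares are 9.36% and 9.01%.

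**Figure D3:**
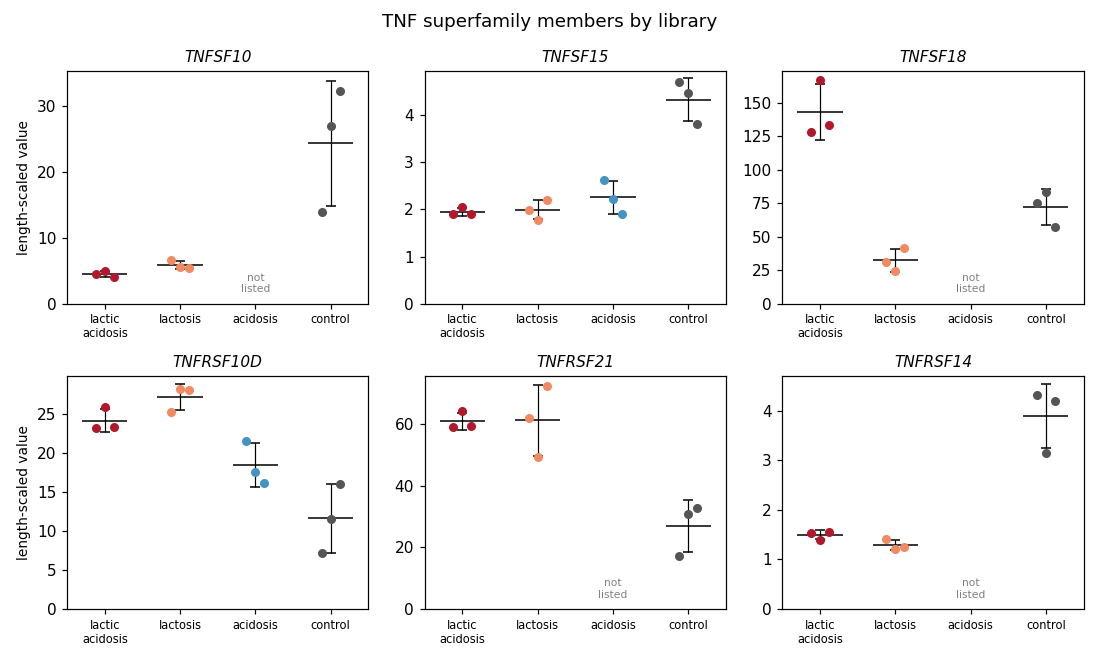
Length-scaled values of 3 TNF ligands and 3 TNF receptors by library, with the group on the horizontal axis and the value on the vertical axis; points are libraries, horizontal lines means and bars the SD of 3 libraries. TNFSF18 averages 143 in lactic acidosis and 32.5 in lactosis, above and below its 72.2 in control, while TNFSF10 averages 4.52 and 5.9 against 24.4.

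The S100 members all lie on chromosome 1, between S100A10 from 151982915 to 151994390 and S100A16 from 153606886 to 153613145. In lactic acidosis all 7 were listed, 5 higher and 2 lower. S100A2, a nuclear S100 protein, was the most abundant member in control, at 893.12, 730.78 and 933.8. It rose to 1787.82, 1422.42 and 1666.81 in lactic acidosis and 2337.97, 2403.09 and 2220.31 in lactosis. The groups did not overlap, and the limma log2 difference from control was 0.93 ± 0.15 (SE) in lactic acidosis (adjusted p = 0.00117) and 1.45 ± 0.14 in lactosis (adjusted p = 0.000169).

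S100A16 rose in all 3 treatments. Its values were 394.64, 392.42 and 388.16 in lactic acidosis, 325.64, 306.42 and 311.38 in lactosis, 260.83, 278.79 and 282.37 in acidosis, and 183.26, 184.92 and 211.08 in control. The 4 groups were each separate. Limma adjusted p-values were 0.000319 for lactic acidosis, 0.00267 for lactosis and 0.0181 for acidosis, and the acidosis call was lost without acidosis replicate 2 or 3 or control replicate 2 (0.0872, 0.0813 and 0.0713).

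S100A10, the binding partner of annexin A2, stood at 366.02, 416.89 and 388.02 in lactic acidosis, 344.92, 379.67 and 360.99 in lactosis, 269.61, 280.8 and 275.21 in acidosis, and 165.45, 214.9 and 255.03 in control. It rose in lactic acidosis and lactosis (limma adjusted p = 0.00227 and 0.00519). In acidosis it was listed by the authors, but limma gave a log2 difference of 0.4 ± 0.18 (SE; adjusted p = 0.0617), which was 0.23 without control replicate 1 (0.0915) and passed without control replicate 3 (0.0154), with a pseudocount of 5 (0.0477) and with rescaled values (0.00816). S100A4, known for its part in cell motility, and S100A11 rose in lactic acidosis (authors' log2 fold changes 0.92 and 0.28), and the S100A11 call was lost without lactic acidosis replicate 2 or 3 (limma adjusted p = 0.0859 and 0.0609).

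S100A8 and S100A9 encode the subunits of calprotectin, an alarm protein of neutrophils and inflamed epithelium, and went the other way in lactic acidosis. S100A8, from 153390032 to 153391188, stood at 3.01, 2.26 and 2.72 in lactic acidosis and 10.2, 8.62 and 12.19 in control, and fell by a limma log2 difference of -1.62 ± 0.16 (SE; adjusted p = 0.000117). S100A9, from 153357854 to 153361027, stood at 9.26, 10.34 and 7.88 in lactic acidosis, 12.73, 20.96 and 14.06 in lactosis, 44.41, 38.52 and 36.39 in acidosis, and 23.84, 24.28 and 37.4 in control. It lay below control in lactic acidosis and lactosis, while the acidosis values overlapped the controls. The limma log2 difference was -1.51 ± 0.19 in lactic acidosis (adjusted p = 0.000349), -0.8 ± 0.23 in lactosis (adjusted p = 0.0137) and 0.49 ± 0.19 in acidosis (adjusted p = 0.0382; SE). The lactosis call was lost without lactosis replicate 1 or 3 (limma adjusted p = 0.056 and 0.0513). The acidosis call was lost without acidosis replicate 1, 2 or 3 or control replicate 1 or 2 (limma adjusted p between 0.0601 and 0.14), where the log2 difference stayed between 0.38 and 0.55, and with a pseudocount of 0.1 (0.058).

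**Figure D4:**
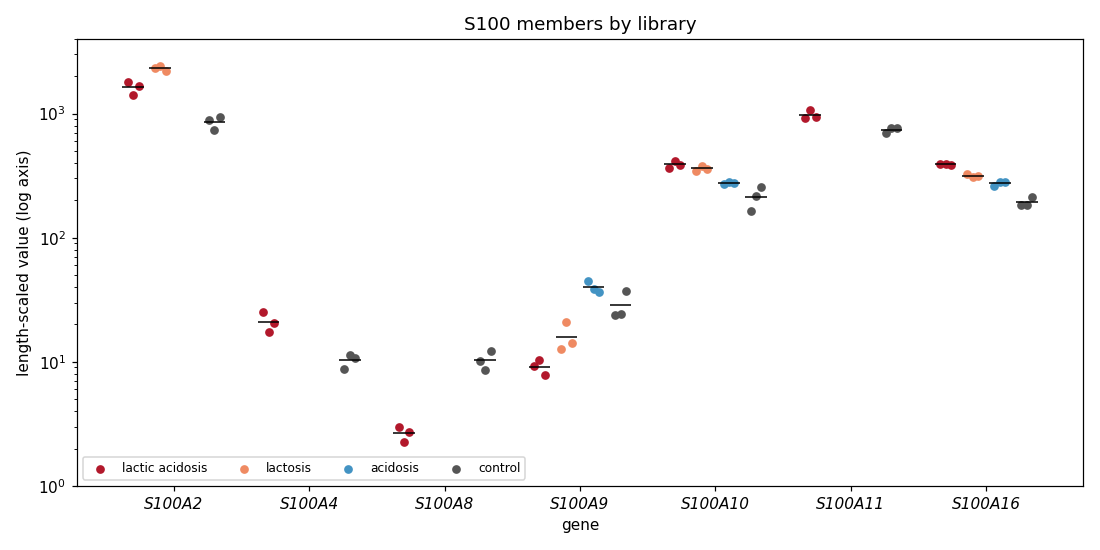
Length-scaled values of the 7 S100 members by library on a log axis, with the gene on the horizontal axis; points are libraries in the order lactic acidosis, lactosis, acidosis and control, and short lines are means. S100A2 is near the top with a mean of 2320 in lactosis, 1630 in lactic acidosis and 853 in control, while S100A9 has a mean of 9.16 in lactic acidosis, 39.8 in acidosis and 28.5 in control.

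The treatments were then compared with each other, without the controls, over the genes listed in both tables. Between lactic acidosis and lactosis, 10 of 20 members passed limma, 5 higher and 5 lower, against 20.4% of all 2344 genes tested (15.7% higher and 4.78% lower). The groups did not overlap for 11 of the 20, against 40.9% of all genes. The median log2 difference of all genes was 0.11, and that of the members 0.08. TNFSF18 was higher in lactic acidosis by 2.13 ± 0.17 on the log2 scale (SE; limma adjusted p = 1.94e-05), IL1A by 1.15 ± 0.11 (5.64e-05) and IL1B by 0.64 ± 0.09 (0.000809). S100A2 was lower by a log2 difference of -0.52 ± 0.1 (limma adjusted p = 0.00439) and S100A9 by -0.71 ± 0.16 (0.0118). For TNFRSF21 the difference was 0.01, with a 95% interval from -0.27 to 0.29, and for TNFSF15 it was -0.01, from -0.2 to 0.17.

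Several calls between lactic acidosis and lactosis were lost when a library was left out, while the differences kept their direction. The calls of CXCL1 (-0.69), IL1RN (-0.44) and TNFSF10 (-0.32) were each lost without lactic acidosis replicate 3 or lactosis replicate 1 (limma adjusted p between 0.0604 and 0.164), and those of CXCL1 and TNFSF10 also without lactic acidosis replicate 2 (0.145 and 0.0551). Without lactic acidosis replicate 1 the IL1RN and TNFSF10 calls were lost as well (0.118 and 0.0936), and the IL1RN call without lactosis replicate 2 (0.0528). The calls of IL4R (0.35) and S100A16 (0.32) were lost without lactic acidosis replicate 1 or 3 (limma adjusted p between 0.0507 and 0.0658), that of IL4R also without lactosis replicate 1 (0.0505), and that of S100A9 without lactic acidosis replicate 3 (0.0554). With a pseudocount of 0.1 or 5, the calls of CXCL1 (limma adjusted p = 0.106 and 0.0788), IL1RN (0.0657 and 0.071) and TNFSF10 (0.0556 and 0.0619) were lost too. With replicate number as a block, those of S100A16 (limma adjusted p = 0.0563) and TNFSF10 (0.0691) were lost. The CXCL1 groups overlapped, at 1.1 in lactic acidosis replicate 1 and 0.84 in lactosis replicate 2. TNFRSF10A (0.36, adjusted p = 0.062) passed without lactosis replicate 3 (0.00246), and its difference was 0.23 without lactosis replicate 2.

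Between lactic acidosis and acidosis, 7 of 8 members passed limma, 5 higher and 2 lower, against 48.8% of all 1304 genes tested (38.7% higher and 10.0% lower). The groups did not overlap for 7 of the 8, against 58.2% of all genes. IL27RA, IL1B, S100A16, S100A10 and TNFRSF10D were higher in lactic acidosis, by between 0.38 and 0.59 on the log2 scale. IL1RN was lower by a log2 difference of -0.51 ± 0.13 (SE; limma adjusted p = 0.0103) and S100A9 by -2.01 ± 0.11 (2.38e-06). The TNFRSF10D call was lost without replicate 2 of lactic acidosis or of acidosis (limma adjusted p = 0.0596 and 0.0633). The media of these groups differ in pH as well as in lactate.

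Between lactosis and acidosis, 4 of 8 members passed limma, 3 higher and 1 lower, against 23.9% of all 1173 genes tested (16.4% higher and 7.5% lower). The groups did not overlap for 5 of the 8, against 39.7% of all genes. TNFRSF10D, S100A10 and IL27RA were higher in lactosis, by 0.54, 0.39 and 0.39 on the log2 scale, and S100A9 was lower by a log2 difference of -1.3 ± 0.17 (SE; limma adjusted p = 0.00188). The TNFRSF10D call was lost without acidosis replicate 2 (0.0534) and the IL27RA call without lactosis replicate 1 (limma adjusted p = 0.0611). For IL1B and IL1RN both differences were -0.07, with 95% intervals from -0.24 to 0.1 and from -0.29 to 0.15.

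**Figure D5:**
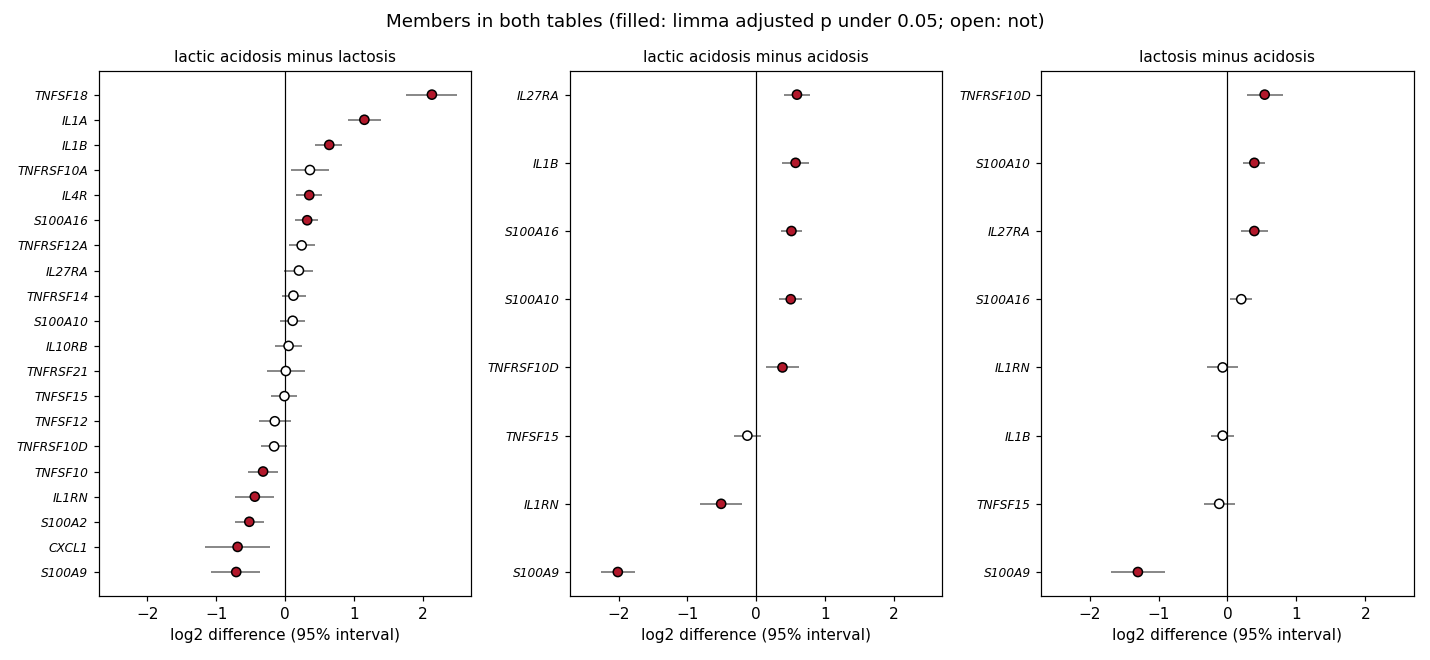
Limma log2 differences between treated groups for members in both tables, with bars for the 95% interval; filled points have an adjusted p under 0.05. TNFSF18 lies farthest right at 2.13 between lactic acidosis and lactosis, and S100A9 farthest left at -2.01 between lactic acidosis and acidosis.

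Of 44 genes of the NF-kappa B pathway, 10 were listed higher and 4 lower in lactic acidosis, 5 higher and 10 lower in lactosis, and 3 in each direction in acidosis. Of all listed genes, 58.9%, 59.3% and 61.1% were listed higher in these treatments. Limma passed 10 and 3, 5 and 9, and 2 and 0 of the pathway genes, against 86.1%, 77.7% and 60.0% of all listed genes. The median log2 fold change of the listed pathway genes was 0.53 for lactic acidosis, -0.43 for lactosis and 0.08 for acidosis, against 0.37, 0.35 and 0.32 over all listed genes. TNFAIP3, which removes ubiquitin to end the signal, and TRAF1 had, by the authors' deposited table, log2 fold changes of 0.91 and 0.92 in lactic acidosis. CHUK, a kinase of the pathway, had 0.84 in lactic acidosis and 0.82 in lactosis, and IRAK2, a kinase below the interleukin-1 receptor, had -1.09 in lactosis.

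Of 40 genes of the JAK-STAT and gp130 pathway, 6 were listed higher and 3 lower in lactic acidosis, 4 and 4 in lactosis, and 2 and 3 in acidosis, and limma passed 6 and 3, 3 and 3, and 0 and 0 of them. The median log2 fold change of those listed was 0.49 for lactic acidosis, 0.02 for lactosis and -0.27 for acidosis, beside the same all-gene medians as above, and 58.9%, 59.3% and 61.1% of all listed genes were higher. The shares of all listed genes past limma are those given above. LIF, a ligand of gp130 receptors, stood at 29.3 ± 0.707 in lactic acidosis and 14 ± 1.77 in lactosis, against 9.91 ± 1.65 in control, and CLCF1, another such ligand, at 16.4 ± 1.1 and 17 ± 1.48, against 7.01 ± 1.4 (SD, n = 3). CSF1 was listed lower in lactic acidosis and lactosis (authors' log2 fold changes -0.81 and -1.13). PTPN6 was listed lower in lactic acidosis, lactosis and acidosis (-0.87, -0.67 and -0.36), and did not pass limma in acidosis (adjusted p = 0.0714). Of 10 receptors and partners of S100 proteins, 4 were listed higher in lactic acidosis, 3 higher and 1 lower in lactosis, and 1 higher in acidosis. Limma passed all 4 in lactic acidosis, 2 of the higher and 0 of the lower in lactosis, and 0 in acidosis. Of all listed genes, 58.9%, 59.3% and 61.1% were higher, and 86.1%, 77.7% and 60.0% passed limma. ANXA2, CAPN2 and EZR were listed higher in both lactic acidosis and lactosis. In lactosis ANXA2 did not pass limma (log2 difference 0.18, adjusted p = 0.256), and its values overlapped the controls. TLR4, a receptor for calprotectin, was listed in lactic acidosis alone, at 2.55 ± 0.14 against 0.29 ± 0.0436 in control (SD, n = 3). Among 16 other chemokine genes, 2 were listed higher and 3 lower in lactic acidosis, 1 and 2 in lactosis, and 0 and 1 in acidosis. Limma passed 2 and 2, 1 and 1, and 0 and 1 of them. The shares of all listed genes, higher or past limma, are those given above. CX3CL1, which encodes a membrane-bound chemokine, was listed lower in all 3 treatments. Its log2 fold changes by the authors' deposited table were -3.09 for lactic acidosis, -1.63 for lactosis and -1.17 for acidosis.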

How the data were processed

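The authors deposited per-library values, a signal scaled by gene length and library, without stating TPM or FPKM. Group means in the same tables are also a signal and hold gene counts divided by size factors. Each deposited fold is a ratio with control on top and was inverted here to treated over control; the posterior fold (PostFC in the headers) was used, which lies nearer 0 than the plain ratio of group means. The posterior probability that expression was equal, or different, stands beside them, per the file headers, under column names used by EBSeq. STAR and hg38 are named, per the submitters' processing notes, and the counting tool is not given in the sources used here.

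Limma 3.58.1 in R 4.3.3 was run on log2(value + 1) for the 6 libraries of each of 6 comparisons, over all genes listed in the table or in both tables, with Benjamini-Hochberg adjustment and a threshold of 0.05. The adjustment runs only over genes the authors had already called from these libraries. It therefore corrects for little, and the adjusted p-values against control describe genes picked for a change. A fold on this scale understates changes of low genes. The script was first tested on simulated data. Tables were joined in Python 3.11.15 with pandas 2.3.3 and numpy 2.4.6, and plots drawn with matplotlib 3.10.9.

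Values are shown for every library for 21 members: those changed at least 2-fold with a mean value of at least 1 in a group, those in all 3 tables and those with opposite directions. The other 16 are named with their direction and, where values are given, a mean with SD or the authors' fold. Of the fixed lists, at most 4 genes per table were named. Members and lists were chosen with earlier results of these data known. Positions and shared windows are from GENCODE release 29 on GRCh38. Alternatives were stricter thresholds, pseudocounts of 0.1 and 5, a filter, rescaled values, a block for replicate number, and each library left out; rescaling between treated groups was added after seeing the data. No read totals are given, so no counting interval was set, and genes in no table were not analysed here.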

Additional observations from a re-analysis of the deposited data

Results flagged for a closer look

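The following effects of 2 treatments against the shared controls differed by the limma test of the treated groups themselves, given as log2 differences at an adjusted p under 0.05. In lactic acidosis minus lactosis these were TNFSF18 (2.13), IL1A (1.15), IL1B (0.64), IL4R (0.35), S100A16 (0.32), TNFSF10 (-0.32), IL1RN (-0.44), S100A2 (-0.52), CXCL1 (-0.69) and S100A9 (-0.71). In lactic acidosis minus acidosis they were IL27RA (0.59), IL1B (0.57), S100A16 (0.51), S100A10 (0.5), TNFRSF10D (0.38), IL1RN (-0.51) and S100A9 (-2.01). In lactosis minus acidosis they were TNFRSF10D (0.54), IL27RA (0.39), S100A10 (0.39) and S100A9 (-1.3). For members listed in opposite directions (TNFSF18, IL1A, and S100A9 against acidosis) a difference was built into the listing.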

How the results depend on the processing

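By the authors' calls, a minimum change of 2-fold left 4 members higher and 7 lower in lactic acidosis, 5 higher in lactosis, and 1 higher and 1 lower in acidosis. For acidosis against control, limma passed 3 members higher with the replicate number as a block, and between 2 and 7 with 1 library left out. Between lactic acidosis and lactosis it passed 2 members lower with a pseudocount of 0.1 and 2 with a pseudocount of 5, and with 1 library left out between 3 and 6 higher and between 1 and 5 lower. Of the differences near 0 between lactic acidosis and lactosis, IL10RB was -0.02 without lactosis replicate 3, TNFRSF21 lay between -0.14 without lactosis replicate 2 and 0.14 without lactosis replicate 3, and TNFSF15 lay between -0.06 without lactosis replicate 2 and 0.03 without lactosis replicate 3. With rescaled values, IL10RB was -0.02 and TNFRSF21 -0.07, and 4 results gained a call. The cause was not tested. Across single members, the block lost 8 calls and kept 93 results on their side of the threshold. Same-numbered libraries showed no sign of pairing: their deviations from the group means correlated between -0.42 and 0.2. Counting each library once per comparison, 11 of 36 entries correlated best with their own number. Deviations within a group of 3 sum to 0, so this cannot decide whether the libraries are pairs. Without control replicate 1, the counts against control were 20 higher and 11 lower in lactic acidosis, 11 and 11 in lactosis, and 5 and 3 in acidosis.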
